A study of Rattus norvegicus with 12 samples.

Results

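MiR-296 and miR-298 are microRNAs (miRNAs) cut from neighbouring hairpins beside Gnas, an imprinted gene that encodes a G protein alpha subunit. They were measured as 4 mature strands, rno-miR-296-5p, rno-miR-296-3p, rno-miR-298-5p and rno-miR-298-3p, taken by name from the 685 miRNA names in the tables, and all 4 passed the filter on low counts. They were chosen by their fold changes in shStau2 against shNTC, where 3 of them passed a test with the replicate number in the model, so that contrast is given for them as a description. The libraries came from primary cortical neurons of Sprague Dawley rats at embryonic day 17, plated at 100000 cells per square centimetre, transduced with lentivirus at 10 days in vitro and lysed at 14 days in vitro. The virus of the shNTC group carried a non-targeting short hairpin RNA, that of the shStau2 group one against Stau2, and that of the shPum2 group one against Pum2. Stau2 encodes Staufen2, which binds double-stranded RNA, and Pum2 encodes a repressor that binds single-stranded mRNA motifs. Every group held 4 libraries numbered 1 to 4, every group received virus and a hairpin, and no library of untransduced neurons was analysed here. The cultures were dissociated cortex and not sorted, so RNA of other cell types can be present.

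A miRNA hairpin is released from a longer transcript by Drosha and cut by Dicer into a duplex. A strand of it enters Argonaute and pairs with target mRNAs mainly through its seed, bases 2 to 8. At an imprinted locus the transcript is made from the copy inherited from one parent. In mouse, miR-296 and miR-298 lie in the antisense transcript Nespas and are made from the paternal copy. In human and mouse cells miR-298 is known to repress the mRNA of the beta-secretase BACE1, and in human brain endothelial cells miR-296 is known for its part in vessel growth.

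The hairpins show how close the 2 genes and their strands lie. Both came from RefSeq on assembly GRCr8, from the minus strand of chromosome 3, and capitals mark the mature strands, 5p first.
Mir296, chr3:183470069-183470146: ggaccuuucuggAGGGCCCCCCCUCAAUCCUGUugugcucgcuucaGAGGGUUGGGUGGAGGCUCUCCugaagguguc
Mir298, chr3:183470522-183470603: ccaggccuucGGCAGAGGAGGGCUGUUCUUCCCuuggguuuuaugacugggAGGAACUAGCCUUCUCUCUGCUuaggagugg
In that assembly 375 bases separate the hairpins, Mir296 neighbours Mir298 with no gene between, and the next genes are Npepl1 on one side and Gnas on the other. RNAfold gave a minimum free energy of -40.5 kcal per mol for the Mir296 hairpin and of -47.8 kcal per mol for the Mir298 hairpin. In those folds 18 of 21 bases of miR-296-5p and 20 of 22 of miR-296-3p were paired, as were 23 of 23 bases of miR-298-5p and 20 of 22 of miR-298-3p.

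The mature strands, again from RefSeq, are shown with the seed in capitals because the seeds and the base composition set the strands apart.
miR-296-5p: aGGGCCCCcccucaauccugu
miR-296-3p: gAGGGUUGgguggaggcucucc
miR-298-5p: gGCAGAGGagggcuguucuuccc
miR-298-3p: aGGAACUAgccuucucucugcu
The 4 seeds all differed, and 0 other mature rat miRNAs in the RefSeq table shared any of them. The nearest other mature sequence was 8 edits away for miR-296-5p and miR-298-3p and 9 edits away for miR-296-3p and miR-298-5p. The share of G and C was 68.2% in miR-296-3p, 66.7% in miR-296-5p and 65.2% in miR-298-5p, against a median of 47.8% over the 613 miRNA names with a RefSeq sequence. With 50.0%, miR-298-3p lay near that median.

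Library totals lay between 3836349 and 5415763 counts. The lowest count of any of the 4 strands in a library was 421 and the highest 7122, so counting error was 4.87% of the value at most and 1.18% at least. Levels are CPM, counts rescaled to a common library total, with scaling by the trimmed mean of M-values (TMM), and are shares of a library, not amounts per cell. In bulk cultures a change in the mix of cells cannot be told apart from a change within cells. The 21 neuron names summed to between 323778 and 390383 CPM in a library, and 0 of them were at 0 in every library.

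The strand miR-298-5p was the most abundant. It stood at 1213, 957, 1184 and 1192 CPM in shNTC libraries 1 to 4, at 1385, 1438, 1317 and 1708 CPM in shStau2, and at 1158, 1504, 1187 and 1533 CPM in shPum2. Every shStau2 library was above every shNTC library, while the shPum2 libraries spread across both groups. Over the 12 libraries it ranked 67th of 628 miRNAs by mean CPM.

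Its partner miR-298-3p stood at 105, 102, 115 and 121 CPM in shNTC, at 107, 122, 121 and 139 CPM in shStau2, and at 97.3, 117, 100.1 and 107 CPM in shPum2. All 3 groups overlapped. It ranked 218th.

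The strand miR-296-3p stood at 283, 238, 266 and 265 CPM in shNTC, at 333, 360, 341 and 428 CPM in shStau2, and at 244, 327, 244 and 377 CPM in shPum2. Every shStau2 library was again above every shNTC library, and in shPum2 libraries 2 and 4 were high while 1 and 3 lay within the range of shNTC. It ranked 134th.

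Its partner miR-296-5p stood at 137, 133, 147 and 139 CPM in shNTC, at 172, 169, 189 and 187 CPM in shStau2, and at 126, 165, 136 and 172 CPM in shPum2. The shNTC and shStau2 libraries did not overlap, and shPum2 libraries 2 and 4 were again the high ones of their group. It ranked 186th.

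**Figure D1:**
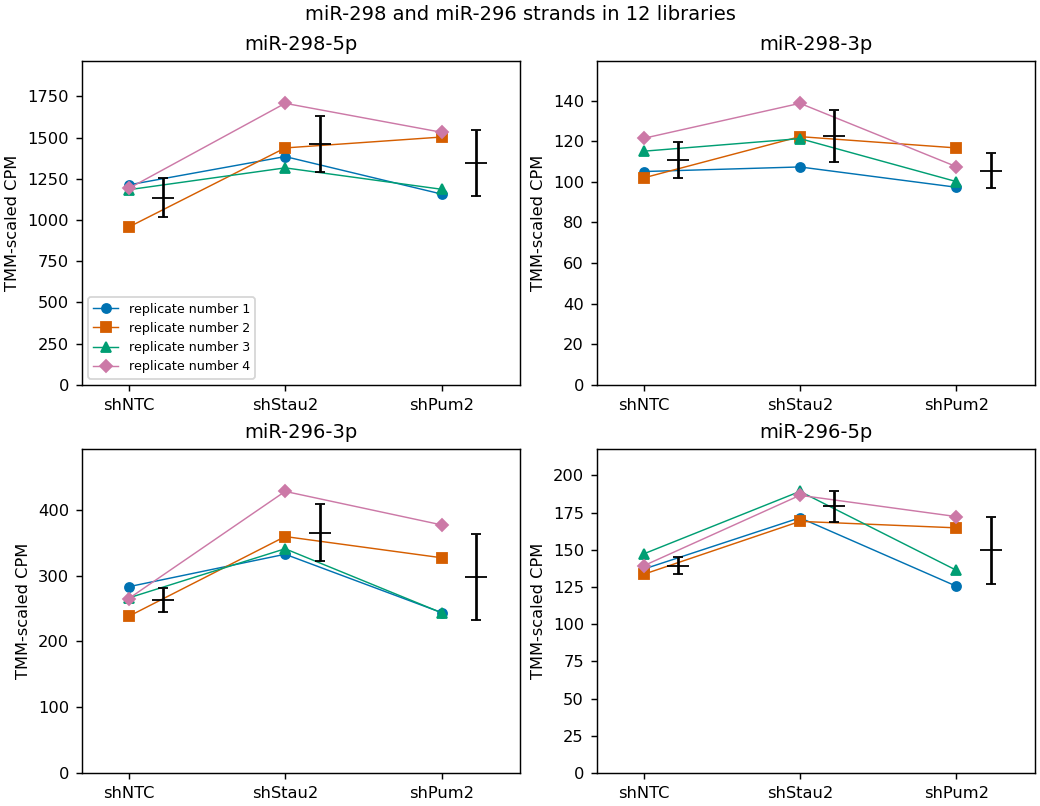
TMM-scaled CPM (y axis, from 0) of each strand in the 12 libraries by group (x axis). Coloured points joined by lines are libraries with the same replicate number, and black bars are the mean ± SD of 4 libraries. For miR-298-5p, miR-296-3p and miR-296-5p all shStau2 points lie above all shNTC points, and shPum2 libraries 2 and 4 lie above 1 and 3.

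The hairpins differed in how unequal their strands were. The 5p strand of miR-298 outnumbered its 3p strand 10.3 ± 0.933 to 1 in shNTC, 12.0 ± 0.873 to 1 in shStau2 and 12.7 ± 1.13 to 1 in shPum2 (mean ratio of counts ± SD, n = 4). Its ratio lay between 9.39 and 11.6 in shNTC and between 11.9 and 14.3 in shPum2, ranges that did not overlap. The range of shStau2, 10.9 to 12.9, overlapped both. For number 1 the ratio was 11.6 in shNTC and 11.9 in shPum2. How many other hairpins have ratios that do not overlap was not counted, so nothing is read from this. The 2 strands also differ in GC content, at 65.2% and 50.0%, and the part of GC content in the ratio was not tested. For miR-296 the 3p strand was the more abundant, at 1.89 ± 0.129 to 1 in shNTC, 2.04 ± 0.215 to 1 in shStau2 and 1.98 ± 0.165 to 1 in shPum2. The ranges of the miR-296 ratio overlapped, at 1.78 to 2.07 in shNTC, 1.80 to 2.29 in shStau2 and 1.79 to 2.19 in shPum2. These ratios do not depend on the scaling between libraries, but capture of strands by ligation can differ with sequence, so a ratio is not one of molecules in the cell.

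**Figure D2:**
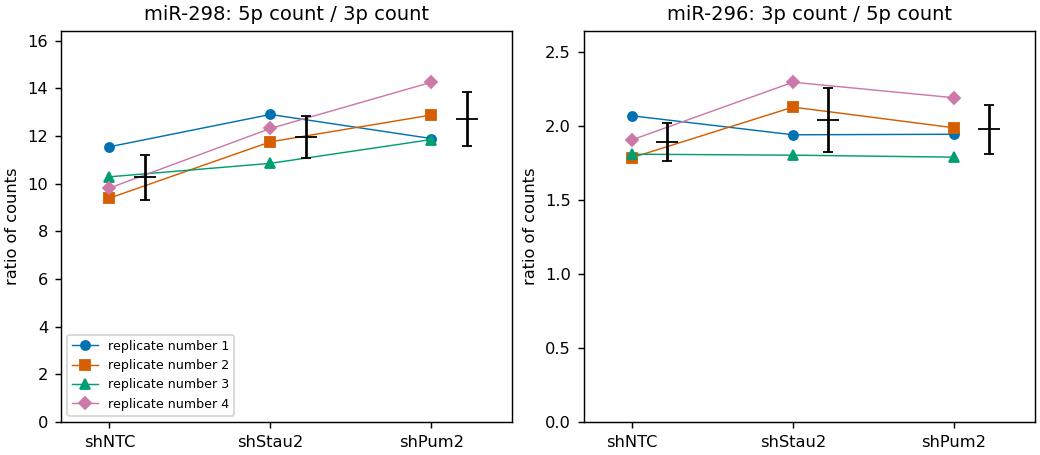
Ratio of the counts of the 2 strands of a hairpin in each library (y axis, from 0) by group (x axis), with points joined by replicate number and black bars for the mean ± SD of 4 libraries. The miR-298 ratio lies at 9.39 to 11.6 in shNTC, at 10.9 to 12.9 in shStau2 and at 11.9 to 14.3 in shPum2. The miR-296 ratio overlaps between all groups. Ratios of other hairpins were not counted.

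Before group and replicate number means were removed, correlations across libraries were highest among 3 of the strands. Over the 12 libraries, log2 CPM of miR-296-3p followed that of miR-296-5p with a Pearson r of 0.92 (Spearman rho 0.90) and that of miR-298-5p with r = 0.93 (rho 0.92), and miR-296-5p followed miR-298-5p with r = 0.81 (rho 0.81). The correlations of miR-298-3p were lower, at r = 0.64 with its own partner (rho 0.65), 0.71 with miR-296-3p (rho 0.69) and 0.70 with miR-296-5p (rho 0.72). Without the 2 libraries farthest from the median of the first strand, r was 0.41 between the strands of miR-298 and 0.91 between those of miR-296. After removal of group and replicate number means, r was 0.89 between the strands of miR-296 and 0.73 between those of miR-298. With the means removed, miR-298-5p had r = 0.88 with miR-296-3p and 0.72 with miR-296-5p. For miR-298-3p r was then 0.46 with miR-296-3p and 0.33 with miR-296-5p. The values before the removal include the difference between groups on which the strands were chosen. The libraries share groups, replicate numbers and scaling, so these values are a description and carry no p.

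Among the 447 other miRNAs with a mean of at least 10 CPM, miR-137-5p, the partner strand of the neuronal miR-137-3p, was in the 5 closest to each of the 4 strands, with r from 0.71 with miR-298-3p to 0.93 with miR-296-3p over the 12 libraries. The closest to miR-298-5p was miR-935 (r = 0.98, rho 0.96), which was also among the 5 closest to miR-296-3p (r = 0.91). The closest to miR-296-5p was its own partner, and the closest to miR-298-3p was miR-672-3p (r = 0.75). For miR-298-5p its own partner, miR-298-3p, ranked 46th of the 447. Of the 8 other miRNAs on these lists of 5, 1 had a GC content of at least 60%, namely miR-935 with 65.2%. Over all 613 miRNA names with a sequence the share was 16.3%, so nothing is read from that count.

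The contrast of shStau2 with shNTC asked what differed with the hairpin against Stau2, and it is the one on which the strands were chosen. Small RNA counts do not show how far Staufen2 was depleted. The mean of miR-296-3p was 263 ± 18.6 CPM in shNTC and 365 ± 43.4 CPM in shStau2 (SD, n = 4), with a log2 fold change of 0.47 (SE 0.14). For miR-296-5p it was 139 ± 5.82 and 179 ± 10.3 CPM, with a log2 fold change of 0.36 (SE 0.11). For miR-298-5p it was 1137 ± 120 and 1462 ± 172 CPM, with a log2 fold change of 0.36 (SE 0.12). For miR-298-3p it was 111 ± 8.99 and 122 ± 12.8 CPM, with a log2 fold change of 0.14 (SE 0.11). All 4 strands stood higher in shStau2 in 4 of 4 replicate numbers, which 16.1% of the 628 miRNAs tested did.

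Without the replicate number in the model, 0 of the 4 strands were called by edgeR, where 0.318% of miRNAs were called. Of the 4, 3 had an unadjusted p under 0.05, as 11.3% of miRNAs did. DESeq2 without the block called 2 of them, miR-296-3p and miR-296-5p, and 4.29% of the 396 miRNAs to which it gave an adjusted p. With the number as a block 3 of 4 passed, against 6.21% of miRNAs in either direction and 2.39% called higher. Nothing is read from these counts, because the contrast chose the strands. The groups did not overlap for the same 3 strands, as for 4.3% of miRNAs with shStau2 higher. The blocked log2 fold changes were 0.46 (SE 0.11) for miR-296-3p, 0.36 (SE 0.10) for miR-296-5p, 0.35 (SE 0.10) for miR-298-5p and 0.14 (SE 0.09) for miR-298-3p. The blocked calls did not all hold with fewer libraries. In the 4 fits that each left out a number, miR-296-3p and miR-298-5p passed in 2, without number 1 or 3, and miR-296-5p in 0. The log2 fold change of miR-296-5p stayed between 0.34 and 0.37 in them. Over all miRNAs these fits called 23, 23, 27 and 5 without numbers 1 to 4, against 39 with all libraries.

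The per-number differences varied for some strands more than for others. Between shStau2 and shNTC, miR-296-5p differed by 0.32, 0.34, 0.36 and 0.42 on the log2 scale for numbers 1 to 4, a narrow range. For miR-296-3p the differences were 0.23, 0.59, 0.36 and 0.69, and for miR-298-5p 0.19, 0.59, 0.15 and 0.52. Numbers 2 and 4 gave the larger differences for both of these strands. For miR-298-3p they were 0.03, 0.26, 0.08 and 0.19.

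Summed markers of astrocytes were lower in every shStau2 library than in any shNTC library, and overlapped between shStau2 and shPum2. How many miRNAs were lower in every shStau2 library was not counted, so nothing is read from this. A sum also does not show how each name moved. The 8 astrocyte names, of which 0 were at 0 in every library, summed to between 6900 and 9702 CPM in shNTC, between 4789 and 6273 in shStau2 and between 5609 and 7696 in shPum2. In shStau2 against shNTC edgeR called 0 of the 8 without the block, and with it 5 lower and 1 higher, miR-23a-5p, which is named here after its value was seen. Of all miRNAs it called 0.318% without the block, and 3.82% lower and 2.39% higher with it. The 6 microglia or blood names tested of 8 summed to between 200 and 394, 141 and 270, and 221 and 330 CPM, ranges that overlapped, and 0 of the 6 were called without the block and 1, lower, with it. Of the 8 vessel or mesenchyme names tested, 0 were called without the block and 1, lower, with it. Of the 5 oligodendrocyte names and the 21 neuron names, 0 were called with or without it. The part of these markers in the levels of miR-296 and miR-298 was not tested.

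What an active hairpin against another mRNA changed was asked by shPum2 against shNTC, which shares the shNTC libraries with the contrast above. By edgeR 0 of the 4 strands were called with or without the block, as were 0% of miRNAs without it and 0.159% with it. The groups overlapped for all 4, while for 1.11% of miRNAs they did not. With a block 1 of 4 had an unadjusted p under 0.05, as did 7.32% of miRNAs, and without it 0 of 4 and 1.43% did. DESeq2 without the block called 0 of the 4 and 0% of 626 miRNAs. The mean of miR-298-5p was 1345 ± 200.4 CPM against 1137 ± 120 CPM, a log2 fold change of 0.24 (SE 0.12, edgeR adjusted p = 0.982). For miR-296-3p, whose SD within shPum2 was 22.1% of its mean against 7.06% in shNTC, the log2 fold change was 0.18 (SE 0.14, edgeR adjusted p = 0.982). The smaller values were 0.10 (SE 0.11) for miR-296-5p, at 149.7 ± 22.4 CPM, and -0.07 (SE 0.11) for miR-298-3p, at 105 ± 8.66 CPM, each with edgeR adjusted p = 0.982.

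The libraries of shPum2 were split by replicate number. On the log2 scale shPum2 minus shNTC was -0.22, 0.46, -0.13 and 0.51 for miR-296-3p, -0.13, 0.30, -0.11 and 0.31 for miR-296-5p, and -0.07, 0.65, 0.00 and 0.36 for miR-298-5p. Numbers 2 and 4 were above their shNTC partner and numbers 1 and 3 level with or below it. For miR-298-3p the differences were -0.11, 0.19, -0.20 and -0.18, and number 4 was low.

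The contrast of shStau2 with shPum2 asked what differed between the hairpin against Stau2 and another active hairpin. It shares the shStau2 libraries with the contrast that chose the strands. Again edgeR called 0 of the 4, both without the block, where it called 0.478% of miRNAs, and with it, where it called 3.98%. Unadjusted p was under 0.05 for 1 of 4 and 9.39% of miRNAs without the block, and for 3 of 4 and 19.7% of miRNAs with it. DESeq2 without the block called 0 of the 4 and 1.12% of 626 miRNAs. With upper-quartile factors in place of TMM in the blocked fit, miR-296-3p and miR-296-5p passed, at 0.34 and 0.30 on the log2 scale. Their edgeR adjusted p was close to the threshold, at 0.0475 and 0.0493. That fit called 40 of 628 miRNAs, 26 of them higher. Its median log2 fold change over all miRNAs was 0.05, against 0.01 with TMM. The log2 fold change without the block was 0.29 (SE 0.14) for miR-296-3p, 0.26 (SE 0.11) for miR-296-5p, 0.22 (SE 0.11) for miR-298-3p and 0.12 (SE 0.12) for miR-298-5p. The edgeR adjusted p was 0.524, 0.473, 0.544 and 0.759 in the same order, and with the block 0.128, 0.128, 0.186 and 0.491. The 3 strands other than miR-298-5p stood higher in shStau2 for 4 of 4 numbers, as did 14.0% of miRNAs, and miR-298-5p did for 3 of 4. For miR-298-5p number 2 gave -0.06. Groups overlapped for all 4 strands, and did not overlap for 4.94% of miRNAs.

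**Figure D3:**
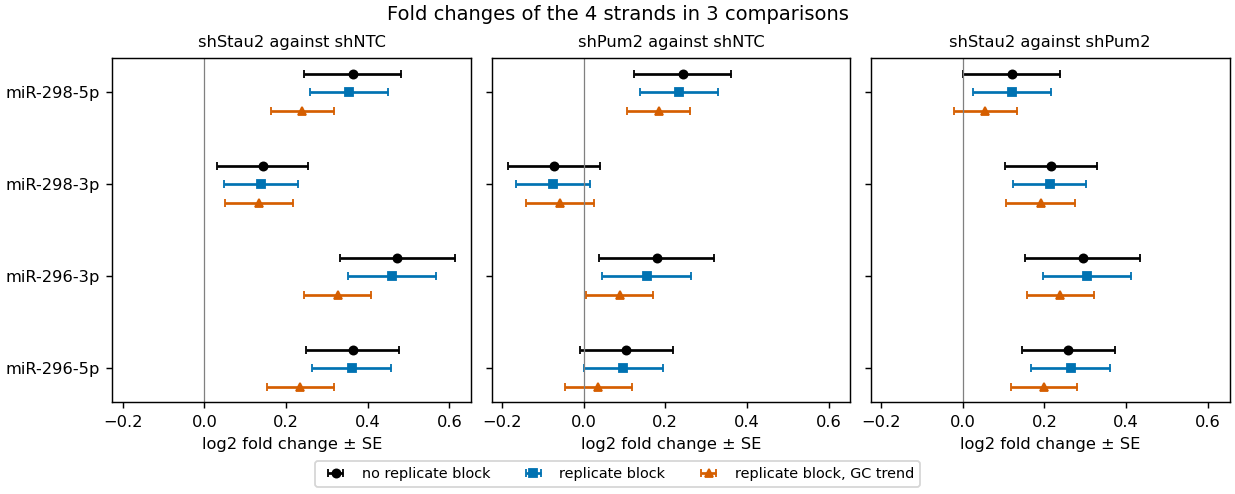
Log2 fold change ± SE (x axis) of the 4 strands (y axis) in the 3 comparisons, from edgeR fits with no replicate block (circles), with it (squares) and with it plus a trend on GC content (triangles). In shStau2 against shNTC the values of miR-296-3p, miR-296-5p and miR-298-5p move toward 0 with the GC trend, from 0.46 to 0.33, 0.36 to 0.24 and 0.35 to 0.24, and that of miR-298-3p stays at 0.14 and 0.13.

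Among tested miRNAs with a sequence, median fold changes differed between classes of GC content of the mature sequence. They rose from class to class in shStau2 against shNTC only. In shStau2 against shNTC with the block, the median log2 fold change was -0.13 over the 97 miRNAs under 40% GC, -0.03 over 187 from 40% to under 50%, 0.03 over 183 from 50% to under 60%, and 0.13 over 96 at 60% and over. Of the last class, 78.1% stood higher in shStau2, against 50.3% of the 563 tested miRNAs with a sequence. The 3 GC-rich strands of the locus belong to that class. In shPum2 against shNTC the class medians were -0.07, 0.00, -0.02 and 0.09, and in shStau2 against shPum2 they were -0.04, -0.04, 0.03 and 0.09.

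With a trend on GC content fitted in each library and added to the blocked model, the strands of the locus stood closer together in shStau2 against shNTC. The log2 fold change was 0.33 (SE 0.08) for miR-296-3p, 0.24 (SE 0.08) for miR-296-5p, 0.24 (SE 0.08) for miR-298-5p and 0.13 (SE 0.08) for miR-298-3p. Of the 3 strands past the threshold with the block, 1 was past it with the GC trend, miR-296-3p. That fit called 7.82% of 563 miRNAs. The edgeR adjusted p was 0.0142 for miR-296-3p, 0.0762 for miR-296-5p and 0.0567 for miR-298-5p. Unadjusted p was under 0.05 for 3 of 4 strands and 22.9% of miRNAs. In shPum2 against shNTC the values with the GC trend were 0.09, 0.04, 0.18 and -0.06 in the same order, and in shStau2 against shPum2 they were 0.24, 0.20, 0.06 and 0.19, with 0 of 4 past the threshold in either comparison, where 0.178% and 6.39% of miRNAs were.

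**Figure D4:**
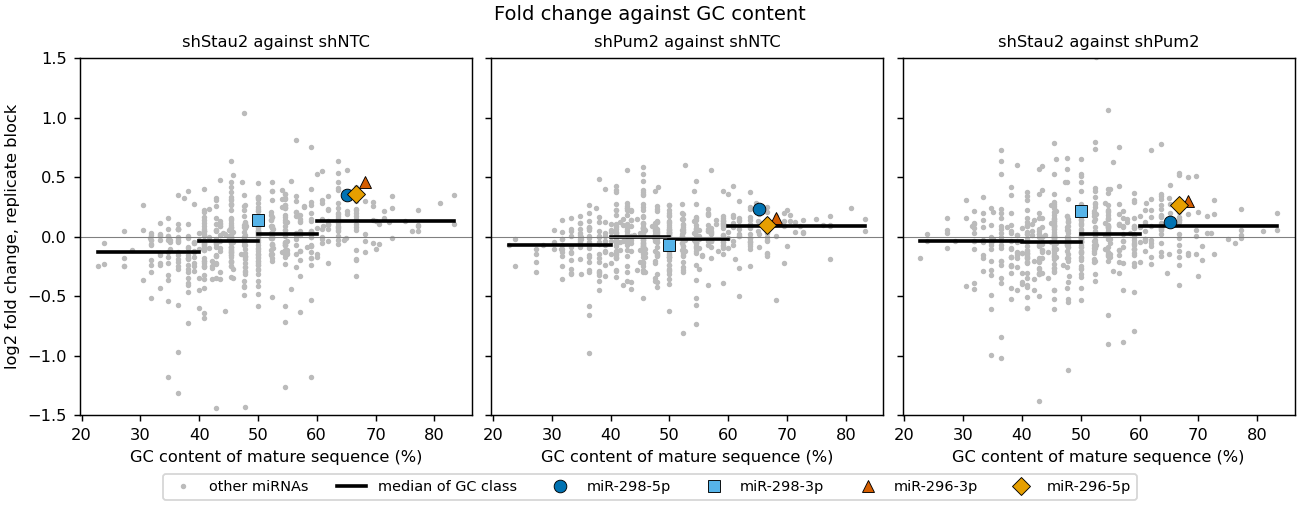
Blocked log2 fold change (y axis) against the GC content of the mature sequence in percent (x axis) for 563 miRNAs in the 3 comparisons; grey points are other miRNAs, black lines the medians of 4 GC classes, and 1 miRNA lies outside the axis limits of 1.5. In shStau2 against shNTC the class medians climb from -0.13 to 0.13; the strands, chosen on that contrast, are drawn in colour.

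The median level of GC-rich miRNAs also differed between single libraries. The median of 69 other GC-rich miRNAs, as log2 CPM minus each miRNA's mean over the 12 libraries, was -0.04, 0.13, -0.20 and 0.09 in shPum2 libraries 1 to 4. The deviations of miR-296-3p there were -0.31, 0.11, -0.32 and 0.31 and those of miR-298-5p -0.17, 0.21, -0.13 and 0.24. Both strands and the GC-rich median were negative in libraries 1 and 3 and positive in 2 and 4. In shStau2 the GC-rich median was 0.01, 0.13, -0.04 and 0.07, and in shNTC 0.04, -0.02, -0.12 and -0.10. The deviations of miR-296-3p were 0.13, 0.24, 0.17 and 0.50 in shStau2 and -0.10, -0.35, -0.19 and -0.19 in shNTC. Those of miR-298-5p were 0.09, 0.15, 0.02 and 0.39, and -0.10, -0.44, -0.13 and -0.12. In shNTC both strands were lowest in library 2, where the GC-rich median was -0.02. In shStau2 miR-296-5p was highest in library 3, at 0.29, where that median was -0.04. The part of GC content in the levels and fold changes of the strands was not tested.

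**Figure D5:**
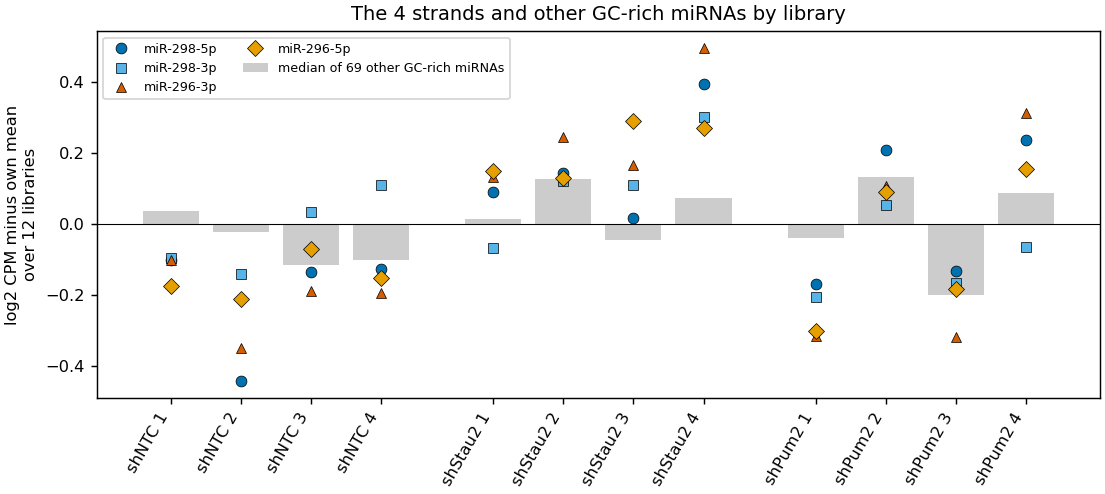
Log2 CPM minus the strand's own mean over 12 libraries (y axis) in each library (x axis) for the 4 strands (points), with the median of 69 other miRNAs of at least 60% GC as grey bars. In shPum2 the bars of -0.04, 0.13, -0.20 and 0.09 go down, up, down and up, as do the points of miR-296-3p, miR-296-5p and miR-298-5p. In shNTC library 2 the points of miR-296-3p and miR-298-5p are the lowest of their group, at -0.35 and -0.44, beside a bar of -0.02.

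Other imprinted miRNAs gave a comparison for the locus. Of the 82 tested strands of the Dlk1-Dio3 locus, whose miRNAs are made from the maternal copy, 0 were called in shStau2 against shNTC by edgeR without the block, where 2 of 628 miRNAs were called and 71 had an unadjusted p under 0.05. With the block 0 of the 82 were called higher and 5 lower, against 2.39% and 3.82% of all miRNAs. Their median log2 fold change with the block was -0.07, against 0.00 over all miRNAs tested. MiR-335, from an intron of the imprinted Mest, stood at 1866 ± 100.6 CPM in shNTC and 1758 ± 162 CPM in shStau2, and its log2 fold change was -0.09 (SE 0.11, edgeR adjusted p = 0.836). MiR-483-3p, from an intron of the imprinted Igf2, stood at 31.2 ± 4.68 and 42.0 ± 10.1 CPM, with a log2 fold change of 0.43 (SE 0.21, edgeR adjusted p = 0.491, and 0.0517 with the block). Of the 4 tested strands from Mest, Igf2 and H19, 0 passed in any of the 3 comparisons, with or without the block.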

How the data were processed

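The deposited files hold whole-number counts per small RNA name, 1 table per library, 685 miRNA names and 120 piRNA names. Per the labels, libraries were made with a kit that carries unique molecular identifiers from RNA with an integrity number of 9.5. The sources used here do not give whether the authors counted molecules or reads, or with which aligner, so errors from counts cover counting error only. Per the submitters' processing notes, the genome build was Rnor 6.0. Sequences came from RefSeq on GRCr8 and matched 613 of 685 names.

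MiRNA counts were fitted in edgeR 4.0.16 (R 4.3.3): TMM scaling, filterByExpr by group (628 miRNAs kept), robust quasi-likelihood test by group over all 12 libraries, two-sided, Benjamini-Hochberg adjusted over all miRNAs, called at 0.05. SE is the log2 fold change divided by the root of F. DESeq2 1.42.0 was an alternative. The GC trend is a loess curve (span 0.7) of each library's log2 CPM deviation (prior count 2) on GC content, used as offset for the 563 tested miRNAs with a sequence. Hairpins were folded with RNAfold 2.7.2.

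Replicate numbers were checked for pairing by correlating deviations from group means: r lay between 0.36 and 0.57 for the 12 pairs with the same number and between -0.41 and 0.14 for the 36 others, above the limit of 0.1, so the block is given where it changes a call. The labels do not say what libraries of a number share. No 2 libraries of a group agreed within counting noise.

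The strands and lists were chosen with earlier results of these data known. The named miRNAs are the 4 strands and, for each, the 5 miRNAs with the highest Pearson r over 12 libraries among those of at least 10 CPM, plus counts and medians for the lists of imprinted loci and cell types; miR-335 and miR-483-3p were named after their values were seen.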

Additional observations from a re-analysis of the deposited data

Results flagged for a closer look

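Among 21 groups of 4 libraries checked for a library far from the others (levels of the 4 strands and ratios of counts), 1 stood apart: miR-298-5p in shNTC, where library 2 was at 957 CPM and the other 3 lay between 1184 and 1213 CPM. Its gap to the nearest library was 0.885 of the range of the group, past the critical value of Dixon's test, and chance alone flags about 1 group in 20. Without that library the log2 fold change of miR-298-5p in shStau2 against shNTC was 0.29 in place of 0.36.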

How the results depend on the processing

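Directions held: none of the 4 strands changed sign in any alternative and comparison run, and in shPum2 against shNTC none passed under any of them. In shStau2 against shNTC, where no strand passed in edgeR without the replicate block, miR-296-3p, miR-296-5p and miR-298-5p passed with it at log2 fold changes of 0.46, 0.36 and 0.35, with upper-quartile factors in the block at 0.47, 0.37 and 0.37, and with DESeq2 in the block at 0.45, 0.36 and 0.35. MiR-296-3p also passed with DESeq2 without the block (0.47), with library totals in the block (0.40) and with the GC trend in the block (0.33), and miR-296-5p with DESeq2 without the block (0.36). Over fits that left out a library or a replicate number, the value ranged from 0.38 to 0.54 for miR-296-3p, from 0.34 to 0.39 for miR-296-5p and from 0.28 to 0.42 for miR-298-5p. Among the fits that passed, those in the block without number 1 or 3, it was 0.54 and 0.49 for miR-296-3p and 0.41 and 0.42 for miR-298-5p. In shStau2 against shPum2, upper-quartile factors in the block brought miR-296-3p (0.34) and miR-296-5p (0.30) just past the threshold, at edgeR adjusted p of 0.0475 and 0.0493.

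The count of all miRNAs called in shStau2 against shNTC was 2 without the block, 39 with it (15 higher, 24 lower), 39 with library totals in the block (7 higher, 32 lower), 38 with upper-quartile factors in it (21 higher, 17 lower), 44 with the GC trend in it, 17 with DESeq2 and 35 with DESeq2 in the block. Leaving out a library gave 1 to 3, with 1 without shStau2 replicate 3, and leaving out a number in the block gave 23, 23, 27 and 5 for numbers 1 to 4. In shPum2 against shNTC the count was 0, against 1 with the block under each scaling and with the GC trend, 2 with DESeq2 in the block, and 0 to 2 with a library or number left out. In shStau2 against shPum2 it was 3, against 0 with upper-quartile factors or only the 8 libraries compared, 7 with DESeq2, and with the block 25 (10 higher, 15 lower), 26 with library totals (5 higher, 21 lower), 40 with upper-quartile factors (26 higher, 14 lower), 36 with the GC trend and 31 with DESeq2. Leaving out a library gave 0 to 4, and leaving out a number in the block 6, 51, 7 and 10 for numbers 1 to 4. The causes of these shifts were not tested. Counting error was at most 4.87% of a strand's value, against SDs of 4.18% to 22.1% of a group's mean, so for miR-296-5p in shNTC depth alone sets a spread of about the size seen.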
